A study of Mus musculus with 18 samples.

Results

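The neuronal splicing and RNA-binding regulators described here are 10 genes of the Ptbp, Rbfox, Nova and Elavl families, namely *Ptbp1*, *Ptbp2*, *Rbfox1*, *Rbfox2*, *Rbfox3*, *Nova1*, *Nova2*, *Elavl2*, *Elavl3* and *Elavl4*. They were chosen by gene symbol, and all 10 had a row in the RNA-seq table of 55153 genes and in the Ribo-seq table, of which 14348 genes carried a count in every library. All 10 passed the filter on low counts in every comparison. RNA-seq measures how much RNA each gene has, and Ribo-seq counts the RNA fragments that ribosomes protect from digestion and so measures how many ribosomes sit on a transcript. Cerebral cortices of mouse embryos at E15.5, labelled as C57BL/6, were used in 3 groups with 3 RNA-seq and 3 Ribo-seq libraries each, 18 in all. Ctrl embryos were wild type by their labels, *F*-cKO embryos carried floxed *Fto* alleles with *Emx1-Cre*, and *M*-cKO embryos carried floxed *Mettl3* alleles with *Emx1-Cre*. *Emx1-Cre* acts in the dorsal telencephalic lineage that gives rise to excitatory neurons and glia of the cortex, so interneurons that migrate in from the ganglionic eminence, blood vessels and microglia keep the intact gene. By the study's methods the floxed lines had a mixed strain background that included C57/BL6. Whether Ctrl embryos carried Cre or a floxed allele is not given beyond the label of wild type. The libraries of a group are labelled as biological repeats, and no source ties the repeat numbers to litters. The wording of the study's Ribo-seq methods can be read as 3 cortical samples from 1 litter.

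Splicing regulators of these families bind short sequences in pre-mRNA and set which exons a neuron keeps. Ptbp1, an exon repressor of progenitors and most non-neuronal cells, blocks neuronal exons and also lowers Ptbp2 by making its transcript skip an exon. Ptbp2, the neuronal paralogue, takes over in young neurons, and the Rbfox proteins, which bind UGCAUG, and the Nova proteins then promote the exon choices of maturing neurons. The Elavl proteins, also called HuB, HuC and HuD for *Elavl2*, *Elavl3* and *Elavl4*, bind U-rich stretches and stabilize or help translate neuronal mRNAs. Fto removes methyl groups from m6A-modified RNA and Mettl3 is the enzyme subunit that writes m6A, and the libraries compare what the loss of each does to the cortex.

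The genes differ widely in size and promoter sequence. In the mm10 build that the submitters' processing notes name, *Ptbp1* spans 10004 bases on chromosome 10 (79854432 to 79864435), and *Rbfox1* spans 1530 kb on chromosome 16 (5884793 to 7412480). The other genes lie between these sizes, from 37.1 kb for *Elavl3* to 422 kb for *Rbfox3*. The promoter windows below run from 250 bases before to 50 bases after a RefSeq transcript start (GRCm38.p6) and were chosen because *Ptbp1*, *Ptbp2*, *Elavl2* and *Elavl4* are the members whose RNA was higher in *F*-cKO cortices, *Nova2* is the member whose footprints were higher in *M*-cKO cortices, and *Rbfox1* is the member whose RNA fell furthest there. For *Rbfox1*, *Elavl2* and *Elavl4*, which have several listed starts, the first listed is shown. Capitals mark a CCAAT box (CCAAT), a GC box (GGGCGG) or an E-box (CAGCTG) on either strand.
Ptbp1, chr10:79854182-79854481, plus strand: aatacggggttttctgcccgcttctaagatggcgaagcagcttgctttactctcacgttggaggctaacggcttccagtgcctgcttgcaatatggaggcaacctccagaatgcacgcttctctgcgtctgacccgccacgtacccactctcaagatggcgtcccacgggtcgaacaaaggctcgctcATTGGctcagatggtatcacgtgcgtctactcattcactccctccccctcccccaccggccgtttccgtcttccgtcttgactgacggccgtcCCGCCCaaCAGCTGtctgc
Ptbp2, chr3:119783339-119783638, minus strand: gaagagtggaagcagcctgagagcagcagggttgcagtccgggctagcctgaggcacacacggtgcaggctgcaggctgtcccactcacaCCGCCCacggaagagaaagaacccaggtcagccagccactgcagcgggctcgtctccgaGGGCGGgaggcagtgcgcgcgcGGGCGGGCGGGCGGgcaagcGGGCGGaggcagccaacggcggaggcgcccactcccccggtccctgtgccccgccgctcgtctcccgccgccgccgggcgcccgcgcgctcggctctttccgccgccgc
Elavl2, chr4:91399935-91400234, minus strand: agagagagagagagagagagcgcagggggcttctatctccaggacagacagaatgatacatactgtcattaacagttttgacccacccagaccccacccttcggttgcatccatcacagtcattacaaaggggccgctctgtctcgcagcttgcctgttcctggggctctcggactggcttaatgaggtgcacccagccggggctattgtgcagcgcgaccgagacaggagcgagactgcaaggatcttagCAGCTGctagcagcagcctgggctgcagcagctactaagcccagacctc
Elavl4, chr4:110351862-110352161, minus strand: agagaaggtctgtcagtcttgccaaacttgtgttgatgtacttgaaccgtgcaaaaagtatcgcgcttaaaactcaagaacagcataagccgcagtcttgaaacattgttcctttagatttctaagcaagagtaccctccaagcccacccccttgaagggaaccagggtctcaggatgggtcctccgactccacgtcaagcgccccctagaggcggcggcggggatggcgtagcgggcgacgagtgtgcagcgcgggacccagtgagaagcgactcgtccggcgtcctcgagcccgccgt
Nova2, chr7:18925638-18925937, plus strand: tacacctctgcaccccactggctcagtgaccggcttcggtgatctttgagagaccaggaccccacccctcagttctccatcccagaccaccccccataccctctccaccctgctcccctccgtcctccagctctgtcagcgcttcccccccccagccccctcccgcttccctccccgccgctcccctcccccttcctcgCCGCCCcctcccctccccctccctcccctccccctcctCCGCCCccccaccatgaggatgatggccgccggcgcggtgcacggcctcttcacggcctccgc
Rbfox1, chr16:5884543-5884842, plus strand: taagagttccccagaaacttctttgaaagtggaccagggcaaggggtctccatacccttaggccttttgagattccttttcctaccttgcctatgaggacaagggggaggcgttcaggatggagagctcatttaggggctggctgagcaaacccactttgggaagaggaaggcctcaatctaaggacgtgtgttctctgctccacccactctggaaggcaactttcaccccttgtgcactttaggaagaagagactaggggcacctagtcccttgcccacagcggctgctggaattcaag
The GC box GGGCGG was in the windows of *Ptbp1*, *Ptbp2* and *Nova2* and in 35.7% of 32851 promoter windows of the same length. In the longest run of capitals of *Ptbp2* neighbouring matches of GGGCGG overlap, and no motif contains another. CCAAT was in the *Ptbp1* window and in 37.4% of all windows, and CAGCTG was in the *Ptbp1* and *Elavl2* windows and in 16.3%. The TATA box TATAAA was in none of the 6 windows shown and in 13.6% of all windows. Counts of the dinucleotide CG ran from 3 in the *Rbfox1* window and 10 in *Elavl2* through 17 in *Nova2*, 22 in *Ptbp1* and 23 in *Elavl4* to 36 in *Ptbp2*, beside a median of 7 over all windows. The 4 members that rose in *F*-cKO cortices thus had no single searched motif in common in these windows. Matches of letters are a description and say nothing about which factor binds.

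In Ctrl cortices the order of these genes differed between RNA and footprints. By RNA-seq FPKM (fragments scaled by gene length and library size), *Elavl3* (87.7 ± 3.65, mean ± SD, n = 3) and *Rbfox2* (85.8 ± 3.31) were highest and their ranges overlapped. *Ptbp2* followed at 37.5 ± 1.70 and lay apart from its neighbours. *Rbfox1* (28.9 ± 2.67), *Elavl4* (25.2 ± 2.13) and *Elavl2* (25.2 ± 1.26) overlapped in sequence, as did *Ptbp1* (21.1 ± 2.41) and *Rbfox3* (18.2 ± 0.434). *Nova2* (16.5 ± 0.560) and *Nova1* (3.59 ± 0.459) closed the order, each apart from the gene above it. By Ribo-seq RPKM (reads scaled in the same way), *Ptbp2* stood alone at the top with 113 ± 13.3. Below it *Elavl3* (50.5 ± 8.02), *Elavl2* (44.9 ± 2.84) and *Rbfox2* (43.4 ± 0.429) overlapped. *Elavl4* (34.8 ± 1.12), *Ptbp1* (31.7 ± 3.13) and *Rbfox1* (25.8 ± 3.25) formed the next run of overlapping neighbours. *Nova2* (9.92 ± 0.440), *Rbfox3* (8.39 ± 0.267) and *Nova1* (3.12 ± 0.798) were the lowest and lay apart from each other.

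**Figure D1:**
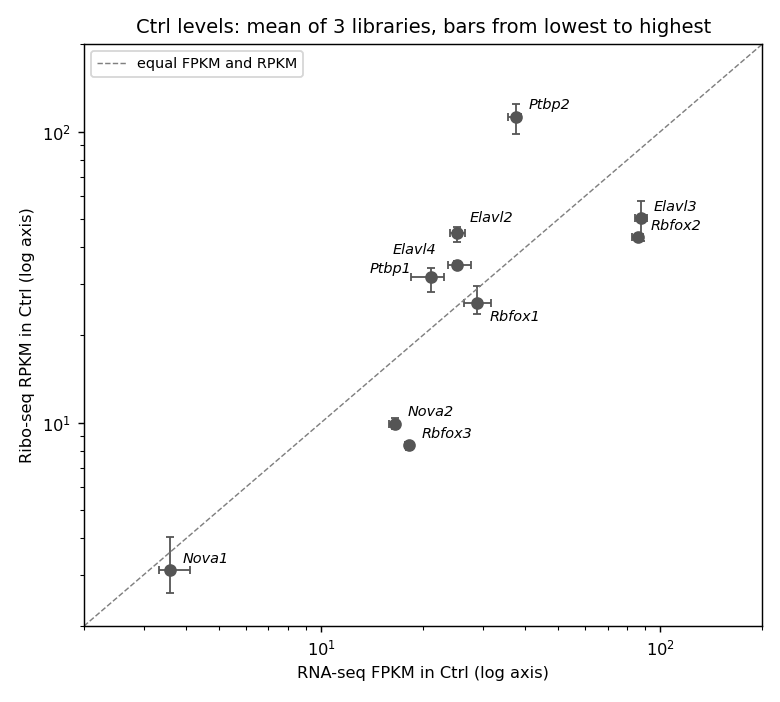
RNA-seq FPKM (x axis, log scale) against Ribo-seq RPKM (y axis, log scale) of the 10 genes in Ctrl cortices, with points at the mean of 3 libraries, bars from the lowest to the highest library and a dashed line where both are equal. *Ptbp2* lies farthest above the line at 37.5 FPKM and 113 RPKM, and the 3 Rbfox genes, both Nova genes and *Elavl3* lie below it.

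Translational efficiency (TE), the ratio of the mean RPKM to the mean FPKM, was 3.00 for *Ptbp2* in Ctrl cortices, above that of 93.9% of the 10491 genes with a mean of at least 1 in both assays. *Elavl2* (1.79), *Ptbp1* (1.5) and *Elavl4* (1.38) were also above the median of those genes, 0.993. *Rbfox1* (0.893) and *Nova1* (0.869) lay just under the median. The lowest TE levels were those of *Nova2* (0.603), *Elavl3* (0.576), *Rbfox2* (0.505) and *Rbfox3* (0.462), of which the last exceeded 23.1% of genes. Within the Elavl family, *Elavl3* had the most RNA and the lowest TE. The gene lengths implied by counts and RPKM were 0.825 to 0.827 times those implied by counts and FPKM in all 10 genes, so the same lengths, up to a constant, underlie both scales. Footprints lie mostly in coding sequence and RNA reads along the whole transcript, so a TE level compared between genes also depends on the coding share of each transcript, which was not tested.

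Libraries held 18504094 to 22592406 counts in RNA-seq and 10973699 to 35853227 in Ribo-seq. *Fto*, the targeted gene of *F*-cKO, was at 10.8, 11.2 and 8.37 FPKM in Ctrl and 3.26, 7.56 and 2.43 FPKM in *F*-cKO, with no overlap, a log2 fold change of -1.21 ± 0.33 (adjusted *P* = 0.0298). Its footprints were at 17.6 to 25.9 RPKM in Ctrl and 2.11 to 4.04 RPKM in *F*-cKO (adjusted *P* = 0.35). *Mettl3* RNA was higher in *M*-cKO (8.61, 7.82 and 8.34 FPKM) than in Ctrl (5.84, 6.43 and 5.07 FPKM, adjusted *P* = 0.00221). Whole-gene RNA counts include exons outside the deleted part and do not check the deletion. *Mettl3* footprints were lower, at 6.02 to 6.78 RPKM in *M*-cKO and 9.16 to 9.93 RPKM in Ctrl (adjusted *P* = 0.0157). The second *F*-cKO Ribo-seq library stood apart, with the fewest counts, 979 RPKM summed over 6 chaperone genes of the endoplasmic reticulum (105 to 169 in the other 8 libraries), 63.9 RPKM over 4 endothelial genes (3.66 to 7.06 in the others) and 2110 RPKM over 11 neuronal genes (3840 to 5010 in the others). In it 9 of the 10 genes had their lowest *F*-cKO value, so results on *F*-cKO footprints are also given without it.

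The comparison of *F*-cKO with Ctrl RNA asks how the loss of *Fto* changed the transcripts of these regulators. RNA of *Ptbp1*, *Ptbp2*, *Elavl2* and *Elavl4* rose, by 1.14-fold to 1.37-fold, and that of no member fell (edgeR quasi-likelihood test, adjusted *P* below 0.05 over all genes tested). Of 16944 genes tested, 11.5% were called higher and 9.57% lower. The 10 log2 fold changes had a median of 0.21, compared with -0.01 over all genes tested. *F*-cKO libraries lay wholly above Ctrl libraries for these 4 genes and overlapped them for the other 6, where 41.0% of all genes kept by the filter did not overlap in either direction.

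*Ptbp1*, the progenitor-type repressor, was at 21.8, 23.1 and 18.4 FPKM in Ctrl and at 28.2, 26.7 and 32.6 FPKM in *F*-cKO. Every *F*-cKO library was above every Ctrl library, with a log2 fold change of 0.45 ± 0.10 (SE; adjusted *P* = 0.0125). Its RefSeq span overlaps the protein-coding gene *Plppr3*, and the strandedness of the counting is not given in the sources used here, so reads of the 2 genes could be shared. *Ptbp2*, its neuronal paralogue, was at 38.9, 35.6 and 37.9 FPKM in Ctrl and at 42.8, 42.3 and 44.6 FPKM in *F*-cKO. The groups did not overlap and the log2 fold change was 0.20 ± 0.06 (adjusted *P* = 0.0407). Whichever library was left out it stayed between 0.16 and 0.23 but was not called (adjusted *P* from 0.0623 to 0.128), nor was it in a joint fit of all RNA-seq libraries (0.053) or with the replicate number as a block (0.0753).

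*Elavl2* and *Elavl4*, which code for HuB and HuD, rose to a similar extent. *Elavl2* was at 26.5, 24.97 and 24.0 FPKM in Ctrl and at 31.9, 32.7 and 32.7 FPKM in *F*-cKO, where the 3 libraries were nearly equal (log2 fold change 0.35 ± 0.06, adjusted *P* = 0.00459). *Elavl4* was at 27.6, 23.7 and 24.3 FPKM in Ctrl and at 32.6, 34.8 and 32.4 FPKM in *F*-cKO (0.39 ± 0.07, adjusted *P* = 0.00636). *Elavl3*, the paralogue with the most RNA, was at 87.3, 84.3 and 91.6 FPKM in Ctrl and at 98.0, 93.5 and 88.8 FPKM in *F*-cKO. Those values overlapped and its log2 fold change was 0.08 (95% interval -0.06 to 0.22, adjusted *P* = 0.39).

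For the Rbfox and Nova genes no change was called in *F*-cKO RNA, and the third *F*-cKO library was the lowest of its group for *Rbfox1*, *Rbfox2*, *Nova1* and *Nova2*. *Rbfox1* had a log2 fold change of 0.04 (interval -0.17 to 0.24), and *Rbfox3*, which codes for the neuronal marker NeuN, one of -0.03 (interval -0.17 to 0.12). *Rbfox2* was at 82.3 to 88.9 FPKM in Ctrl and at 104.5, 99.1 and 81.2 FPKM in *F*-cKO (log2 fold change 0.14, interval -0.06 to 0.33). *Nova2* was at 15.9 to 17.0 FPKM in Ctrl and at 21.9, 21.1 and 14.98 FPKM in *F*-cKO (0.22, interval -0.05 to 0.49). Without the third *F*-cKO library both genes were called higher, at 0.24 (adjusted *P* = 0.0252) for *Rbfox2* and 0.38 (adjusted *P* = 0.00516) for *Nova2*. *Nova2* was also called without the filter on low counts (0.23, adjusted *P* = 0.0188). *Nova1* had the lowest counts of the 10 genes and a log2 fold change of 0.25 (interval -0.07 to 0.57). Markers of intermediate progenitors, the dividing cells between radial glia and neurons, were higher in the same *F*-cKO libraries, with 4 of 5 genes called and summed levels of 235 to 294 FPKM against 131 to 207 FPKM in Ctrl. Their part in these results was not tested, and in bulk tissue more cells of a type and more RNA per cell cannot be told apart.

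**Figure D2:**
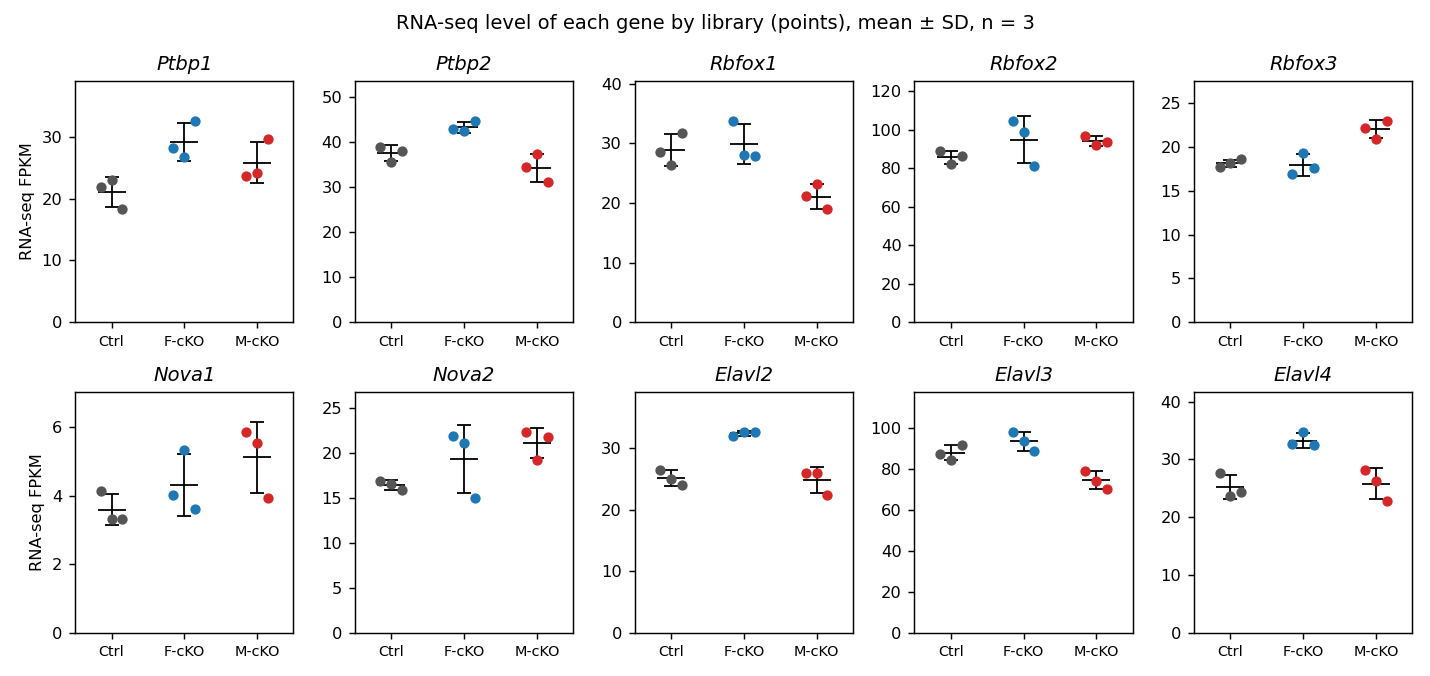
RNA-seq FPKM (y axes, from 0) of each of the 10 genes by group (Ctrl, *F*-cKO, *M*-cKO), with a point for each of 3 libraries, a dash at the mean and bars of ± 1 SD. *Ptbp1*, *Ptbp2*, *Elavl2* and *Elavl4* sit highest in *F*-cKO, and *Rbfox1* and *Elavl3* sit lowest in *M*-cKO.

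In *M*-cKO RNA another mixture of the 10 genes changed. *Rbfox3*, *Nova1* and *Nova2* rose by 1.21-fold to 1.41-fold and *Rbfox1* and *Elavl3* fell, to 0.726 and 0.844 of Ctrl, with the other 5 not called. The same Ctrl libraries serve this comparison and the one of *F*-cKO. Over 16968 genes tested, 15.5% were called higher and 14.1% lower. The members' log2 fold changes had a median of 0.07, against -0.01 for all genes. *M*-cKO libraries lay wholly above Ctrl libraries for 4 genes (*Ptbp1*, *Rbfox2*, *Rbfox3* and *Nova2*) and wholly below for 2 (*Rbfox1* and *Elavl3*), where 44.2% of all genes kept by the filter did not overlap.

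*Rbfox1*, a regulator of neuronal exons and of synaptic mRNAs, was at 28.5, 26.4 and 31.7 FPKM in Ctrl and at 21.1, 23.2 and 19.0 FPKM in *M*-cKO. All 3 *M*-cKO libraries were below all Ctrl libraries, a log2 fold change of -0.46 ± 0.09 (adjusted *P* = 0.0025). *Rbfox3* moved the other way, from 17.7, 18.1 and 18.6 FPKM in Ctrl to 22.2, 20.9 and 23.0 FPKM in *M*-cKO (0.27 ± 0.06, adjusted *P* = 0.00594). *Rbfox2*, the most abundant and most broadly expressed Rbfox gene, was at 96.9, 92.0 and 93.5 FPKM in *M*-cKO, above the 82.3 to 88.9 FPKM of Ctrl. Its log2 fold change of 0.12 (interval 0.00 to 0.25, adjusted *P* = 0.123) was not called.

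*Nova2*, the main Nova gene of the cortex, was at 17.0, 16.6 and 15.9 FPKM in Ctrl and at 22.4, 19.3 and 21.8 FPKM in *M*-cKO. The groups were apart and the log2 fold change was 0.35 ± 0.07 (adjusted *P* = 0.00248). *Nova1*, its paralogue of hindbrain and spinal cord, was far lower, at 4.12, 3.33 and 3.33 FPKM in Ctrl and at 5.86, 5.55 and 3.93 FPKM in *M*-cKO. The groups overlapped through the third *M*-cKO library, and the log2 fold change of 0.50 ± 0.14 (adjusted *P* = 0.0198) was not called when the third Ctrl library (0.0665), the first *M*-cKO library (0.0683) or the second *M*-cKO library (0.0805) was left out.

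*Elavl3*, the pan-neuronal HuC gene, was at 87.3, 84.3 and 91.6 FPKM in Ctrl and at 79.1, 74.0 and 70.3 FPKM in *M*-cKO. *M*-cKO libraries were all lower, with a log2 fold change of -0.25 ± 0.06 (adjusted *P* = 0.0136), which was not called without the third Ctrl library (0.0618) or the second *M*-cKO library (0.0543). *Elavl2* (-0.03, interval -0.19 to 0.13) and *Elavl4* (0.02, interval -0.16 to 0.20) were not called in *M*-cKO. *Ptbp1* was at 23.8, 24.2 and 29.6 FPKM in *M*-cKO, above all Ctrl libraries, and its log2 fold change of 0.28 ± 0.10 missed the threshold narrowly (adjusted *P* = 0.0519). DESeq2 called it (adjusted *P* = 0.0184), as did the test without the second Ctrl library (0.0257) or the first *M*-cKO library (0.034). *Ptbp2* was at 34.5, 37.2 and 31.1 FPKM in *M*-cKO, which overlapped Ctrl (-0.14, interval -0.30 to 0.02). Markers of the ganglionic eminence and striatum, where inhibitory neurons arise, moved with the *M*-cKO libraries. All 10 of them were called higher, their summed level was 127 to 176 FPKM in *M*-cKO against 88.1 to 90.3 FPKM in Ctrl, and their part in the changes of *Rbfox1*, *Rbfox3*, *Nova1*, *Nova2* and *Elavl3* was not tested.

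Compared directly, *M*-cKO and *F*-cKO RNA differed for 6 of the 10 genes. *Ptbp2* (log2 fold change -0.35 ± 0.08, adjusted *P* = 0.00823), *Rbfox1* (-0.51 ± 0.09, 0.00318) and *Elavl2* (-0.40 ± 0.07, 0.0032) were lower in *M*-cKO. *Elavl3* (-0.34 ± 0.07, adjusted *P* = 0.00539) and *Elavl4* (-0.38 ± 0.08, 0.00636) were lower as well, so that the 3 neuronal Elavl genes all had less RNA in *M*-cKO than in *F*-cKO. *Rbfox3* was the single member that was higher (0.29 ± 0.07, 0.0123). The test called 13.1% of 16802 genes higher and 14.3% lower. These 6 calls held whichever library was left out. Markers moved with this comparison as well. In *M*-cKO against *F*-cKO, 7 of 10 ganglionic eminence and striatum genes, 5 of 5 erythroid genes and 2 of 5 meningeal genes were higher, 4 of 8 radial glia genes and 2 of 5 intermediate progenitor genes were lower, and the part of these shifts in the 6 calls was not tested. *Ptbp1* (-0.18, interval -0.41 to 0.04), *Rbfox2* (-0.02, interval -0.21 to 0.17), *Nova1* (0.24, interval -0.12 to 0.59) and *Nova2* (0.12, interval -0.15 to 0.39) were not called. Without the filter on low counts *Nova1* was called higher in *M*-cKO (0.25, adjusted *P* = 0.034).

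**Figure D3:**
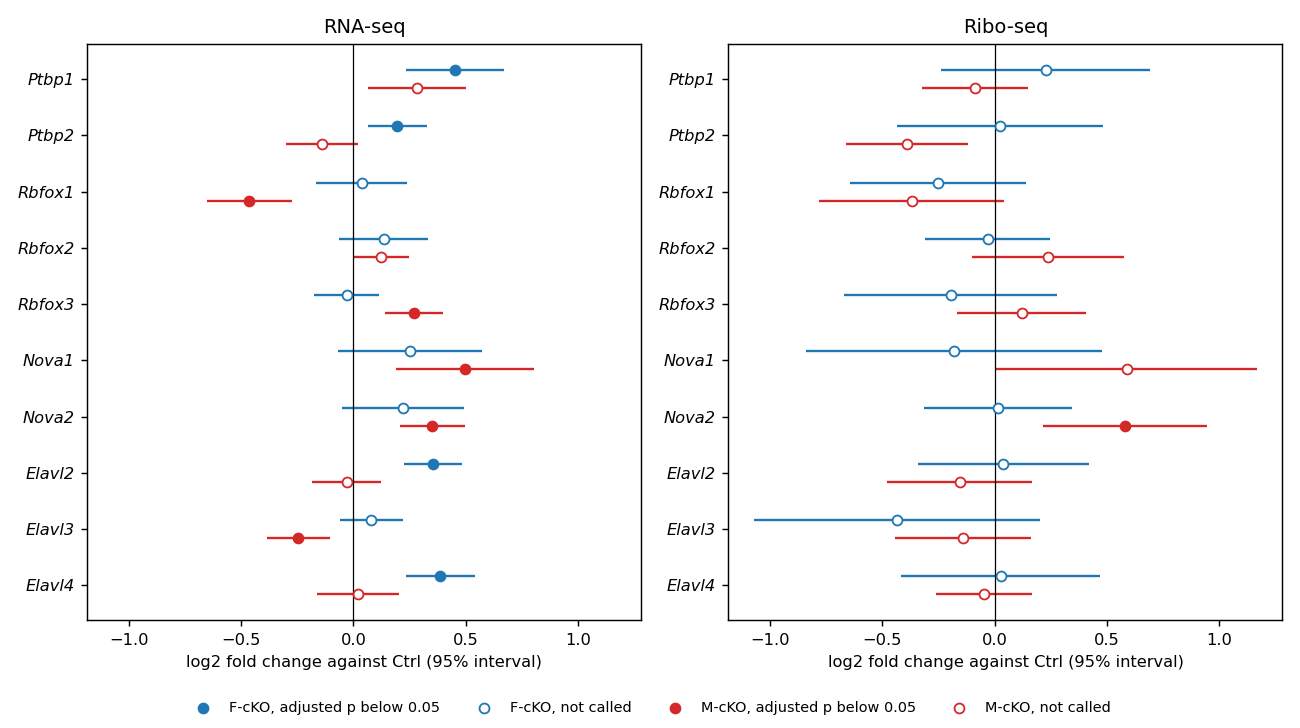
Log2 fold change against Ctrl (x axes) of the 10 genes in RNA-seq (left) and Ribo-seq (right), for *F*-cKO (blue) and *M*-cKO (red), with lines for 95% intervals and filled points for an adjusted *P* below 0.05. Filled points are 4 for *F*-cKO and 5 for *M*-cKO in RNA-seq and *Nova2* in *M*-cKO in Ribo-seq, where intervals are wider.

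Ribosome footprints showed fewer called changes. In *F*-cKO no member was called, as was no gene at all (0.0% of 14335 tested, with 227 genes higher and 91 lower at an unadjusted *P* below 0.05), and the members' adjusted *P* values were 0.73 to 0.971. The targeted gene *Fto* was not called either (log2 fold change -2.675 ± 0.254), and its adjusted *P* of 0.35 equalled the smallest of all genes. This test thus missed a large loss, and a lack of calls in it does not show a lack of change. *Ptbp1* was at 34.0, 32.9 and 28.1 RPKM in Ctrl and at 48.8, 29.6 and 30.4 RPKM in *F*-cKO, where only the first library was above Ctrl (log2 fold change 0.23, interval -0.24 to 0.69). *Ptbp2* was at 124.0, 116 and 98.0 RPKM in Ctrl and at 143, 82.0 and 112 RPKM in *F*-cKO (0.02, interval -0.44 to 0.48). *Elavl2* at 35.2 to 57.2 RPKM and *Elavl4* at 25.6 to 46.7 RPKM in *F*-cKO spread to either side of their Ctrl ranges of 41.7 to 47.0 and 33.6 to 35.8 RPKM. Their log2 fold changes were 0.04 (interval -0.34 to 0.42) and 0.03 (interval -0.41 to 0.47), so the RNA changes of 0.35 and 0.39 lay inside these intervals. *Elavl3* was at 57.9, 51.7 and 42.0 RPKM in Ctrl and at 38.7, 21.9 and 49.6 RPKM in *F*-cKO (-0.44, interval -1.07 to 0.20). *Rbfox3* was the single member whose deposited values did not overlap, at 8.08 to 8.55 RPKM in Ctrl and 5.74, 7.47 and 7.95 RPKM in *F*-cKO, where 7.17% of all genes kept by the filter did not overlap. Its TMM-scaled log2 fold change was -0.20 (interval -0.67 to 0.28). *Rbfox1* (-0.25), *Rbfox2* (-0.03), *Nova1* (-0.18) and *Nova2* (0.02) were not called either. DESeq2 called 6 genes and no member. Without the library that stood apart, no member was called, log2 fold changes were between -0.31 and 0.29 and 1 gene was called in all.

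*Nova2* was the single member called in *M*-cKO footprints. It was at 10.4, 9.93 and 9.48 RPKM in Ctrl and at 12.9, 17.7 and 13.3 RPKM in *M*-cKO, with no overlap. Its log2 fold change was 0.58 ± 0.16 (adjusted *P* = 0.0471), in the direction of its RNA, and was not called without any 1 of the Ctrl libraries (adjusted *P* from 0.11 to 0.148). The test called 7.13% of 14314 genes higher and 7.5% lower. In a joint fit of all Ribo-seq libraries, which called 35 genes in place of 2093, it was not called (adjusted *P* = 0.141), nor was it with the replicate number as a block (0.0597). DESeq2 called *Nova2* and also *Ptbp2* (adjusted *P* = 0.0171 for *Ptbp2*).

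*Nova1* was at 4.04, 2.72 and 2.60 RPKM in Ctrl and at 5.26, 5.38 and 3.30 RPKM in *M*-cKO. The groups overlapped through the third *M*-cKO library, as in RNA, and the log2 fold change was 0.59 ± 0.25 (adjusted *P* = 0.142). Without that library it was 0.80 and called (adjusted *P* = 0.042). *Ptbp2* was at 93.4, 74.4 and 88.4 RPKM in *M*-cKO, below the 98.0 to 124.0 RPKM of every Ctrl library (-0.39 ± 0.12, adjusted *P* = 0.0612). *Rbfox1* was at 24.3, 23.6 and 29.5 RPKM in Ctrl and at 15.2, 21.6 and 22.5 RPKM in *M*-cKO, also without overlap (-0.37 ± 0.18, adjusted *P* = 0.185). *Nova2*, *Ptbp2* and *Rbfox1* were thus 3 of 10 members that did not overlap, where 37.9% of all genes kept by the filter did not. *Rbfox2* (0.24, interval -0.10 to 0.58), *Rbfox3* (0.12, interval -0.17 to 0.41), *Ptbp1* (-0.09, interval -0.33 to 0.15), *Elavl2* (-0.16, interval -0.48 to 0.17), *Elavl3* (-0.14, interval -0.44 to 0.16) and *Elavl4* (-0.05, interval -0.26 to 0.16) were not called. The ganglionic eminence and striatum markers moved with these libraries too, at 67.8 to 141 RPKM in *M*-cKO against 40.4 to 60.6 RPKM in Ctrl with 6 of 10 called higher. Radial glia genes summed to 1040 to 1480 RPKM against 1910 to 2160 RPKM in Ctrl (1 of 8 higher and 1 lower). Their median log2 fold change was 0.08, so the sum, which the most abundant genes weigh most, does not stand for the whole list. Intermediate progenitor genes summed to 112 to 151 RPKM against 79.9 to 109 RPKM (0 of 5 called). Of the endoplasmic reticulum genes 2 of 6 were higher, as was 1 of 2 thalamic genes tested. The part of these markers in the *Nova2* value was not tested.

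Between *M*-cKO and *F*-cKO footprints no member and no gene was called (0.0% of 14262, with 710 genes higher and 444 lower at an unadjusted *P* below 0.05). DESeq2 called 200 genes and again no member. *Nova1* (log2 fold change 0.79 ± 0.30, unadjusted *P* = 0.0328, adjusted *P* = 0.586) and *Nova2* (0.59 ± 0.20, unadjusted *P* = 0.0218, adjusted *P* = 0.586) had the smallest unadjusted values of the 10. Without the *F*-cKO library that stood apart, 5 genes were called and none was a member.

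**Figure D4:**
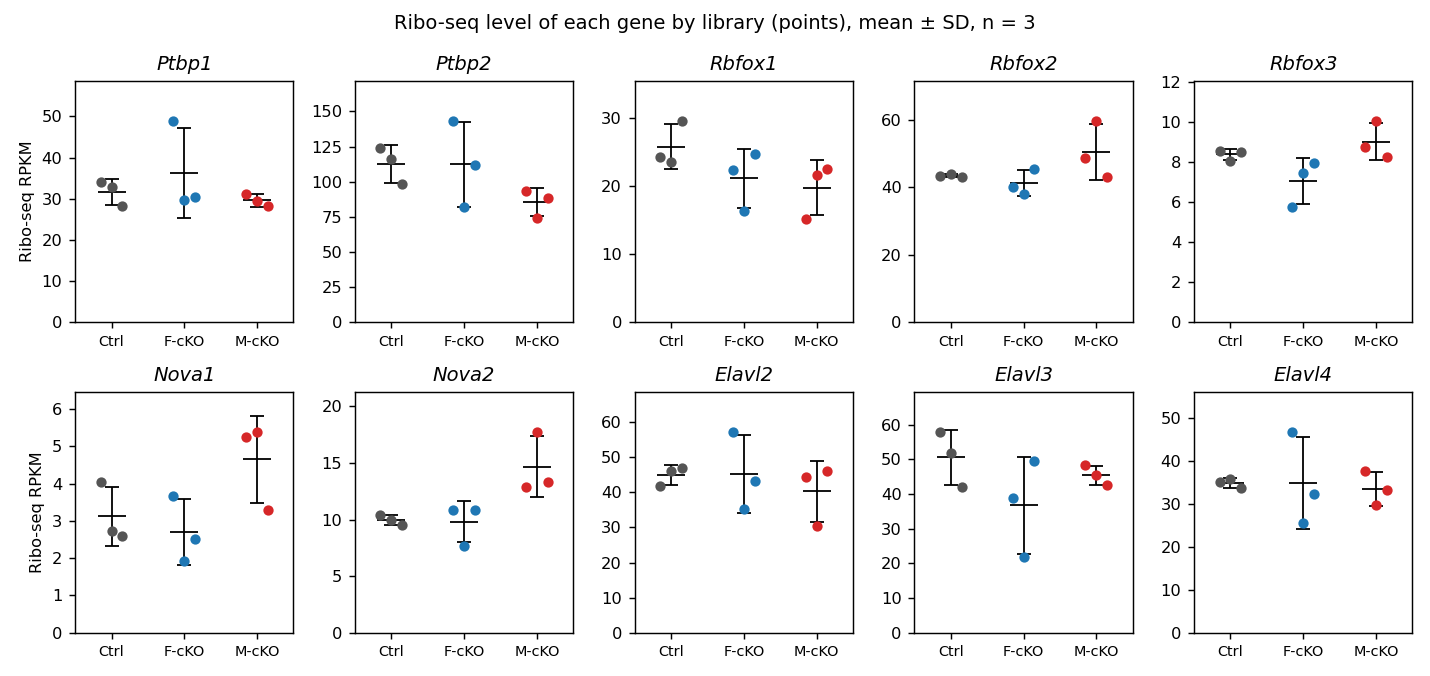
Ribo-seq RPKM (y axes, from 0) of each of the 10 genes by group (Ctrl, *F*-cKO, *M*-cKO), with a point for each of 3 libraries, a dash at the mean and bars of ± 1 SD. *Nova2* lies above Ctrl in all 3 *M*-cKO libraries, and the spread is widest in *F*-cKO for *Ptbp2*, *Elavl2*, *Elavl3* and *Elavl4*.

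No change in TE was called for any member. The test asked whether footprints changed by another factor than RNA, in a single model over 12 libraries. In *F*-cKO all 10 log2 changes in TE were negative, from -0.20 for *Rbfox3* to -0.55 for *Elavl3*, with a median of -0.30 beside -0.01 over all genes. Medians were also negative for neuronal (-0.18), radial glia (-0.14), intermediate progenitor (-0.43), ganglionic eminence and striatum (-0.52) and thalamic genes (-0.32). That of the related regulators described below was -0.20. The targets described below (0.20) and the endothelial, microglial, meningeal, erythroid and endoplasmic reticulum lists had positive medians. None was called, nor was any gene (0.0% of 13225, with 411 genes higher and 817 lower at an unadjusted *P* below 0.05), while DESeq2 called 39 genes and no member. *Elavl2* had the smallest unadjusted *P* (-0.36 ± 0.14, unadjusted *P* = 0.0319, adjusted *P* = 0.524), followed by *Elavl4* (-0.40 ± 0.18, adjusted *P* = 0.541). For these genes the RNA was higher while the footprints were spread around the Ctrl level. Without the *F*-cKO library that stood apart all 10 remained negative, between -0.30 and -0.04, with the smallest adjusted *P* at 0.48.

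In *M*-cKO the log2 changes in TE were positive for 6 members and negative for 4, with a median of 0.08 beside 0.02 over all genes, and adjusted *P* values were 0.279 to 0.998. The test called 1.89% of 13208 genes higher and 1.18% lower. *Nova2* had the highest value (0.30, interval -0.09 to 0.68) and *Ptbp1* the lowest (-0.30, interval -0.64 to 0.03). The *Ptbp1* value joins an RNA change of 0.28 to a footprint change of -0.09. *Ptbp2* was at -0.18 (interval -0.48 to 0.12) and *Rbfox3* at -0.08 (interval -0.37 to 0.20). *Rbfox1* (0.17), *Rbfox2* (0.18), *Nova1* (0.16) and *Elavl3* (0.17) were above 0 with intervals that included it, and *Elavl2* (-0.06) and *Elavl4* (0.00) lay close to it. Between *M*-cKO and *F*-cKO no member and no gene was called (0.0% of 13162, with 321 genes higher and 220 lower at an unadjusted *P* below 0.05), DESeq2 called 18 genes and no member, and *Elavl3* had the smallest unadjusted *P* (0.70 ± 0.28, unadjusted *P* = 0.028, adjusted *P* = 0.889).

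**Figure D5:**
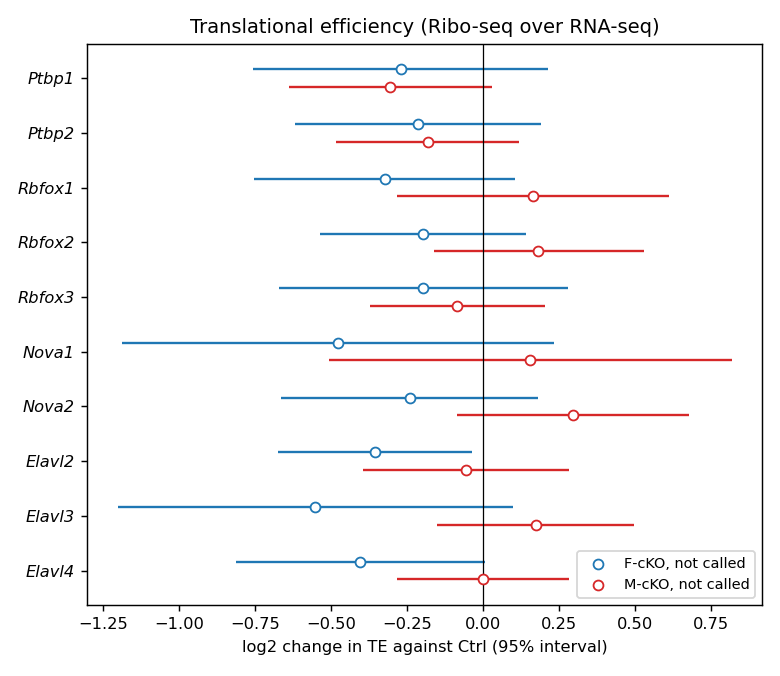
Log2 change in TE against Ctrl (x axis) of the 10 genes in *F*-cKO (blue) and *M*-cKO (red), with lines for 95% intervals. All points are open because none had an adjusted *P* below 0.05, and all 10 *F*-cKO points lie left of 0.

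Shares within a family describe how the balance of paralogues stood in each group. Of the summed FPKM of *Ptbp1* and *Ptbp2*, *Ptbp1* made 32.7% to 39.3% in Ctrl. It made 38.7% to 42.2% in *F*-cKO, which overlaps Ctrl, and 39.4% to 48.8% in *M*-cKO. The ratio of *Ptbp2* to *Ptbp1* RNA was 1.79 ± 0.26 in Ctrl (SD, n = 3), with a range of 1.54 to 2.06. *F*-cKO (1.49 ± 0.11, 1.37 to 1.59) overlapped this range, and *M*-cKO (1.35 ± 0.26, 1.05 to 1.54) ended at its lower edge. In footprints the ratio was 3.55 ± 0.089 in Ctrl. It was 3.12 ± 0.48 in *F*-cKO, 2.89 ± 0.31 in *M*-cKO, and the *M*-cKO range of 2.54 to 3.13 lay below the Ctrl range of 3.48 to 3.65.

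Of Rbfox RNA, *Rbfox1* made 20.8% to 23.2% in Ctrl. Its share was 19.1% to 22% in *F*-cKO. In *M*-cKO it was 14.0% to 17.0%, where *Rbfox3* made 15.4% to 17.0% against 13.1% to 14.3% in Ctrl. In *M*-cKO cortices *Rbfox1* and *Rbfox3* thus had near-equal shares. *Nova2* made 80.4% to 83.3% of Nova RNA in Ctrl and 77.7% to 84.7% in *M*-cKO, so the balance of the Nova pair overlapped. *Elavl3* made 61.7% to 65.4% of the RNA of the 3 neuronal Elavl genes in Ctrl and less in both knockouts, with 57.7% to 60.3% for *F*-cKO and 58.6% to 60.8% for *M*-cKO. The smaller share went with more *Elavl2* and *Elavl4* RNA in *F*-cKO and with less *Elavl3* RNA in *M*-cKO. Of their footprints *Elavl3* made 34.2% to 43.0% in Ctrl and the shares of all 3 genes overlapped between groups.

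Other RNA-binding regulators of the developing brain were taken from a list of 24 genes, of which 23 were tested in RNA. The list was put together with earlier results of these data known. In *F*-cKO 7 were higher and 2 lower, with a median log2 fold change of 0.19, where 11.5% and 9.57% of all genes were called. *Msi2* (0.46 ± 0.07, adjusted *P* = 0.00443) and *Qk* (0.35 ± 0.06, 0.00694), regulators of neural progenitors and of glia, rose. *Ptbp3* (0.34 ± 0.09, 0.0246), the third Ptbp paralogue, and *Rbm38* (0.53 ± 0.15, 0.0301) rose as well. *Khdrbs3* (-0.61 ± 0.09, adjusted *P* = 0.0036), a regulator of neurexin splicing, and *Srrm3* (-0.47 ± 0.07, 0.00409), which promotes neuronal microexons, fell.

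In *M*-cKO RNA 4 of the 23 were higher and 6 lower, with a median of 0.03, beside 15.5% and 14.1% of all genes, so the share that rose was near that of all genes. The smallest adjusted *P* among those that fell were of *Khdrbs3* (-0.83 ± 0.08, adjusted *P* = 6.05e-05), *Celf6* (-0.44 ± 0.10, 0.00627), *Srrm3* (-0.30 ± 0.08, 0.0125) and *Celf3* (-0.21 ± 0.06, 0.0143). *Rbm38* (0.64 ± 0.13, 0.00405), *Rest* (0.42 ± 0.10, 0.0117), a repressor of neuronal genes, *Msi2* (0.29 ± 0.08, 0.019) and *Msi1* (0.31 ± 0.09, 0.0221) rose. Directly compared, 7 of 23 were lower and 0 higher in *M*-cKO than in *F*-cKO, where 14.3% and 13.1% of all genes were called. In footprints of *M*-cKO, 3 of 24 were lower and 0 higher, where 7.5% and 7.13% of all genes were called, namely *Tra2b* (-0.54 ± 0.09, adjusted *P* = 0.0138), *Celf3* (-0.99 ± 0.17, 0.0148) and *Khdrbs3* (-0.49 ± 0.13, 0.0429). *Tra2b*, an exon-activating factor, and *Celf3* were also lower in TE (-0.55 ± 0.10, adjusted *P* = 0.0165, and -0.71 ± 0.18, 0.0482), which no member was.

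A list of 14 genes known as targets of these regulators, most of them synaptic or axonal, held no gene that was called higher against Ctrl. This list, too, was put together with earlier results known. In *F*-cKO RNA 5 of 14 were lower and 0 higher, with a median log2 fold change of -0.14, where 9.57% of all genes were called lower. *Grin1* (-0.74 ± 0.14, adjusted *P* = 0.00853), an NMDA receptor subunit, and *Gap43* (-0.49 ± 0.11, 0.0162), a growth cone protein whose mRNA Elavl4 stabilizes, fell. *Cacna1c* (-0.31 ± 0.07, 0.0191), a calcium channel gene, and *Vamp2* (-0.34 ± 0.08, 0.0197), a synaptic vesicle gene, fell as well.

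In *M*-cKO RNA 9 of the 14 targets were lower and 0 higher, with a median of -0.26, where 14.1% of all genes were called lower. *Kif5a* (-0.47 ± 0.06, adjusted *P* = 0.000184), a neuronal kinesin, and *Dab1* (-0.45 ± 0.06, 0.000239), a Reelin pathway adaptor whose splicing Nova2 controls, fell. *Cacna1c* (-0.44 ± 0.07, 0.000782) and *Grin1* (-0.61 ± 0.12, 0.00303) fell in this comparison too. Footprints of *Dab1* (-0.75 ± 0.10, adjusted *P* = 0.0088) and *Kif5a* (-0.49 ± 0.11, 0.03) were lower and none of the 14 was higher. No target was called in *F*-cKO footprints or in TE of either knockout. Gene-level counts hold no exon inclusion, so the splicing of these targets was not measured here.

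Marker lists show what else moved in the RNA libraries. The 11 neuronal genes, which include markers of the excitatory neurons the tissue should hold, summed to 2280 to 2480 FPKM in Ctrl. The sums were 2070 to 2270 for *F*-cKO and 2300 to 2410 for *M*-cKO, with as many called higher as lower in each knockout (3 and 3, 4 and 4). The 8 radial glia genes summed to 762 to 851 FPKM in Ctrl, with 721 to 783 for *F*-cKO and 560 to 602 for *M*-cKO and with 4 called higher and 2 lower in *F*-cKO and 3 higher and 2 lower in *M*-cKO. In *M*-cKO, 2 of 5 intermediate progenitor genes were higher, and in *F*-cKO 5 of 10 ganglionic eminence and striatum genes were. In *F*-cKO, 3 of 5 meningeal genes (2.27 to 6.92 FPKM against 9.0 to 16.6 in Ctrl), 1 of 4 endothelial genes and 1 of 5 erythroid genes were lower. In *M*-cKO none of these 14 genes was called, nor was any of 5 microglial genes in either knockout, and 3 thalamic genes summed to at most 3.99 FPKM in any library, with 1 of 2 tested called higher in each knockout. No listed marker was at 0 in every library. Whether these shifts in cell markers account for any change of the 10 genes was not tested.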

How the data were processed

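RNA-seq and Ribo-seq libraries of E15.5 cortices were grouped by their labels. The processing notes of the submitters name HISAT2 2.0.5, TopHat2, HTSeq, DESeq2 1.14.1 and the build mm10. RNA-seq counts per gene were deposited by the authors after HISAT2 alignment, with FPKM computed by the authors. Ribo-seq counts were made by the authors with TopHat2 and HTSeq, and RPKM were deposited with them. The annotation and strandedness are not given in the sources used here. Of 54838 Ribo-seq genes, 40490 were blank in 8 of 9 libraries and were left out. Columns of samples outside the series numbered 0. No pair of replicates agreed within sampling noise.

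Counts were analysed from there in R 4.3.3 with edgeR 4.0.16 (filterByExpr with minimum count 10 and minimum total count 15, TMM, quasi-likelihood test over the 6 libraries of a comparison, Benjamini-Hochberg adjustment over all genes tested, threshold 0.05). TE was tested as the interaction of assay and genotype over 12 libraries, for genes that passed the filter in each assay. Errors of log2 fold changes are SE, and intervals are 95%. Levels are deposited FPKM and RPKM as mean ± SD. The scripts were tested on simulated data. Alternatives were DESeq2 1.42.0, RLE scaling, no filter, protein-coding genes only, the replicate number as a block, a joint fit of all libraries and each library left out in turn. *P* values measure the spread between the libraries, which no source ties to separate litters.

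The 10 genes and all lists were chosen with earlier results of these data known. Named were all 10 genes, *Fto* and *Mettl3*, and from the lists of related regulators and targets, in each comparison with Ctrl, the called genes with the smallest adjusted *P*, at most 4 of a list in each direction. *Plppr3* was named for its overlap. The footprint value of a further target gene is not reported here. Symbols, coordinates and promoters came from RefSeq (GRCm38.p6), in which 9 of the 10 genes had a promoter window.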

Additional observations from a re-analysis of the deposited data

Results flagged for a closer look

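The effects of both knockouts on RNA differed, by the direct test of *M*-cKO against *F*-cKO (edgeR quasi-likelihood test, 3 libraries each), for 6 of the 10 genes. The same test called 27.4% of all 16802 genes tested. The log2 differences were -0.346 for *Ptbp2*, -0.511 for *Rbfox1*, 0.289 for *Rbfox3*, -0.395 for *Elavl2*, -0.336 for *Elavl3* and -0.378 for *Elavl4*. The Ctrl libraries shared by both knockouts drop out of this test. Against Ctrl, *Ptbp2*, *Elavl2* and *Elavl4* were called in *F*-cKO alone and *Rbfox1*, *Rbfox3* and *Elavl3* in *M*-cKO alone. No test of single libraries far from their group was made, since groups of 3 are too small for it.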

How the results depend on the processing

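Under the alternatives, 905 repeats of single-gene results kept direction and side of the threshold, 18 lost a call, 12 gained one and 37 uncalled values changed sign. For *M*-cKO against *F*-cKO in footprints and TE, these totals hold only *Nova1* and *Nova2* footprints and *Elavl3* TE. The other members, with an unadjusted *P* of 0.05 or more there, were left out, so sign changes among them are not counted. Called changes were called again in 159 repeats and changed direction in 0. The count of members called stayed within 1.5 times in 113 repeats and left it in 10. The 113 include every repeat of the TE comparisons. They also include every repeat of the footprint comparisons of *F*-cKO with Ctrl and of *M*-cKO with *F*-cKO. No member was called there in any setting, so those repeats say little about stability. In *M*-cKO RNA (5 called) it ranged from 3 (without the third Ctrl or the second *M*-cKO library) to 6 over libraries left out. In *M*-cKO footprints (1 called) it was 2 with DESeq2, 0 with all libraries in a single fit, 0 with the replicate block, 2 with protein-coding genes only, and 0 to 2 over libraries left out. *Nova2* had an adjusted *P* of 0.141 in the single fit and 0.0597 with the block there. *Ptbp2* RNA in *F*-cKO was not called in the single fit (0.053) or with the block (0.0753).

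Within an assay, deviations of same-numbered libraries from their group means correlated between -0.323 and 0.203. Differently numbered libraries were not compared, so these values cannot tell whether libraries of the same number shared a litter or a batch. Between RNA-seq and Ribo-seq libraries of the same number the correlations were 0.129 to 0.288 for Ctrl, 0.083 to 0.289 for *M*-cKO and -0.311 to -0.016 for *F*-cKO, and the TE test without the block treats these libraries as independent. The block changed no other call of the 10 genes. Values that crossed 0 were never called in either setting. *Elavl4* TE in *M*-cKO was -0.027 with DESeq2, -0.0272 with RLE scaling, -0.003 without the filter, -0.0017 in the single fit, -0.0002 with the block and -0.0776 to 0.0692 over libraries left out. Among the results counted, the other ranges over libraries left out were, for RNA in *F*-cKO, -0.0501 to 0.1102 (*Rbfox1*) and -0.0842 to 0.0208 (*Rbfox3*). For RNA in *M*-cKO they were -0.0604 to 0.0467 (*Elavl2*) and -0.0394 to 0.1094 (*Elavl4*), and for *M*-cKO against *F*-cKO -0.1069 to 0.0585 (*Rbfox2*) and -0.0197 to 0.2251 (*Nova2*). For footprints in *F*-cKO they were -0.1378 to 0.1502 (*Ptbp2*), -0.0455 to 0.0323 (*Rbfox2*), -0.4077 to 0.0698 (*Nova1*), -0.021 to 0.1029 (*Nova2*), -0.1117 to 0.1307 (*Elavl2*) and -0.185 to 0.1514 (*Elavl4*). For footprints in *M*-cKO they were -0.2504 to 0.0123 (*Elavl2*) and -0.103 to 0.0285 (*Elavl4*), and for TE there -0.0004 to 0.2629 (*Rbfox2*), -0.0089 to 0.3925 (*Nova1*) and -0.179 to 0.0791 (*Elavl2*). Counts over all genes called moved further: 3576 in *F*-cKO RNA became 2130 with the block, 2093 in *M*-cKO footprints became 35 in the single fit and 1319 with the block, and 405 in *M*-cKO TE became 11 in the single fit, 172 with the block and 1001 with DESeq2. Leaving out a library gave 1543 to 3474, 177 to 2547 and 65 to 1054 of these. The cause of these shifts was not tested. Depth limits *Nova1* most, with 545 to 1163 RNA counts and 170 to 1051 footprint counts in a library.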
